A study of Homo sapiens with 18 samples.

Results

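Of the 57500 genes in the deposited count tables, 47 were followed here as interferon-stimulated antiviral genes, matched by their GENCODE 29 symbol, and each of them had a count. RNA came from THP-1, a line of human monocytic leukaemia cells, transduced with lentiviral particles for a hairpin without a target (shNT), a hairpin against NR4A2 (shNR4A2) or one against NR4A3 (shNR4A3). NR4A2 and NR4A3 are orphan nuclear receptors of the NR4A family. Cells of each line were left without LPS (control) or were given LPS, a bacterial cell wall component that is sensed by TLR4, at 2.5 μg/ml for 2 h, with 3 libraries in each of the 6 groups and 18 in all. The lines were kept under puromycin. The sources used here do not say how many hairpins or clones stand behind a line, so a difference between lines cannot be told apart from a difference between transduced cell populations. The labels number the libraries 1 to 3 in each group, and the study describes its replicates as independent experiments. The libraries held between 16171161 and 23929138 counts, and levels are given as TPM (transcripts per 1e6), the count divided by the deposited length of the gene and scaled per library.

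Interferons are secreted signals that cells release on sensing a virus or a bacterium. Type I interferons bind a receptor of IFNAR1 and IFNAR2, and the receptor kinases JAK1 and TYK2 activate a factor that holds IRF9 and binds a DNA element called ISRE in front of its target genes. The targets act at many steps of infection: sensors and oligoadenylate synthetases detect foreign RNA, IFIT proteins bind it, IFITM and BST2 act at viral entry and release, and ISG15 is a ubiquitin-like tag put on other proteins. In monocytes, LPS reaches the same genes through TLR4 and the adaptor TRIF (gene TICAM1), which activate IRF3 and so switch on IFNB1, the gene of interferon β.

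Many interferon targets hold the ISRE in their promoter, so promoter stretches of 4 members are shown here. RefSeq promoters (GRCh38.p14, 250 bases before the start to 50 after it) were at hand for 37 of the 47 members, and were searched on both strands for the core of the ISRE, which is GAAA, any 2 bases and GAAA again. It was found in 27 of the 37 (73.0%) and in 1195 of all 27305 genes with a promoter (4.38%). The NR4A binding element NBRE, AAAGGTCA, was found in 0 of the 37 and in 1.49% of all genes. The stretches below lie before the start and hold no exon base of GENCODE 29. They are IFI27 and IFI6, which had the largest fold changes between the knockdown lines without LPS, IFIT3, which rose with LPS in all 3 lines, and IFI35, which holds no match and was higher in both knockdown lines than in shNT cells. Capitals mark the ISRE core on either strand.
IFI27, chr14:94110518-94110677, plus strand: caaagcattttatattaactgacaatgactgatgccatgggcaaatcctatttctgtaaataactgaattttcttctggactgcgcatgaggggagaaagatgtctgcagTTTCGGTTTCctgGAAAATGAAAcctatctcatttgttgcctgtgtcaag
IFI6, chr1:27672219-27672378, minus strand: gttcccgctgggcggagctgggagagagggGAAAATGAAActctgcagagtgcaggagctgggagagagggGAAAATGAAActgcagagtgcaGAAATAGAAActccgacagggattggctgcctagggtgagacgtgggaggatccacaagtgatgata
IFIT3, chr10:89327747-89327893, plus strand: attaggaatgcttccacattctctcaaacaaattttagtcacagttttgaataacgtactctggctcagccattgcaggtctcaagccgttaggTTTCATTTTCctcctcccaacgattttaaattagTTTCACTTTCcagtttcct
IFI35, chr17:43006565-43006724, plus strand: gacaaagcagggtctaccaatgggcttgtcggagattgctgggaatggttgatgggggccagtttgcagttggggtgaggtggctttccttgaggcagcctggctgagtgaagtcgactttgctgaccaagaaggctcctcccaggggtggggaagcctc
The IFI27 stretch holds 2 cores and the IFI6 stretch holds 3, of which 2 are the letters GAAAATGAAA that IFI27 also holds. A match is a description of these letters and was not tested as a site.

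The knockdowns were checked first. NR4A2 stood at 4.16, 2.83 and 4.08 TPM in the 3 shNT control libraries and at 1.82, 1.63 and 2.41 in shNR4A2 control libraries (log2 fold change -0.91, SE 0.23, adjusted p = 0.0359). With LPS it stood at 62.2, 74.7 and 51.3 in shNT and 20.5, 28.3 and 14.8 in shNR4A2 cells (log2 fold change -1.52, SE 0.19, adjusted p = 0.00265). The NR4A3 level was 0.556, 0.693 and 0.512 TPM in shNT and 0.158, 0.107 and 0.0315 in shNR4A3 control libraries (log2 fold change -2.47, SE 0.50, adjusted p = 0.00767), and with LPS 30.9, 32.3 and 31.9 in shNT and 17, 18.2 and 16.7 in shNR4A3 (log2 fold change -0.82, SE 0.08, adjusted p = 0.000556). Each target was lower in its own line in both states with no overlap, and both genes were still induced by LPS there. The related NR4A1 was called in no comparison of lines. All 8 monocyte markers had counts in all 18 libraries. Of 8 markers of other cell types, MS4A1 (B cells) had 3 reads and HBB (erythroid cells) 5 over all 18 libraries, 3 markers were high enough to test, and 1, PECAM1, which monocytes also express, was higher in shNR4A2 than in shNT cells in both states.

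The 47 members differed widely in level. By mean TPM over the 18 libraries, 7 members were above 100, 25 lay between 10 and 100, 14 between 1 and 10 and 1 below 1. The most abundant was IFI6, a mitochondrial protein that limits cell death, at 464 TPM, followed by BST2 (tetherin, which holds budding virions at the cell surface) at 395, IFITM3 (which blocks fusion of entering virus) at 272 and IFITM2 at 131. ISG15 (114), IFITM1 (106) and TRIM25 (105), a ubiquitin ligase that acts on the RNA sensor RIG-I, followed. The least abundant was ZBP1, a sensor of left-handed nucleic acids, with between 2 and 12 reads summed over the 3 libraries of a group where it was seen and 0 in shNT control cells, and ZBP1 did not pass the filter on low counts in any comparison. LAMP3, a lysosomal membrane protein, was too low for the comparisons of lines without LPS. So 45 members were tested between lines without LPS and 46 in every other comparison.

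Summed over the members, TPM was higher in shNR4A3 cells than in both other lines. Without LPS the sum was 1901, 2084 and 2249 in the 3 shNT libraries, 1596, 2226 and 2267 in shNR4A2 and 2293, 2786 and 2594 in shNR4A3. With LPS it was 1980.0, 2073 and 2334 in shNT, 1690.0, 2153 and 2569 in shNR4A2 and 2643, 2691 and 3054 in shNR4A3. The shNR4A3 mean was 2557 ± 249 (SD, n = 3) without LPS and 2796 ± 225 with LPS. In both states the 3 shNR4A3 libraries lay above all 6 libraries of the other lines. The shNR4A2 libraries spread most, with replicate 1 the lowest of the 3 without LPS and with LPS. IFI6 made up 64.8% of the net difference between the knockdown lines without LPS (342 of 528 TPM) and 49.4% with LPS (326 of 659 TPM). The sum without IFI6 still differed between them, by 186 TPM without LPS and 333 TPM with LPS. Between shNR4A2 and shNT cells the mean sums differed by -48.6 TPM without LPS and 8.23 TPM with LPS, less than the SD of either group (174 and 376 without LPS, 184 and 440 with LPS). There IFI6 was lower in shNR4A2 (by 178 and 173 TPM) and the remaining members were together higher (by 129 and 181 TPM).

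**Figure D1:**
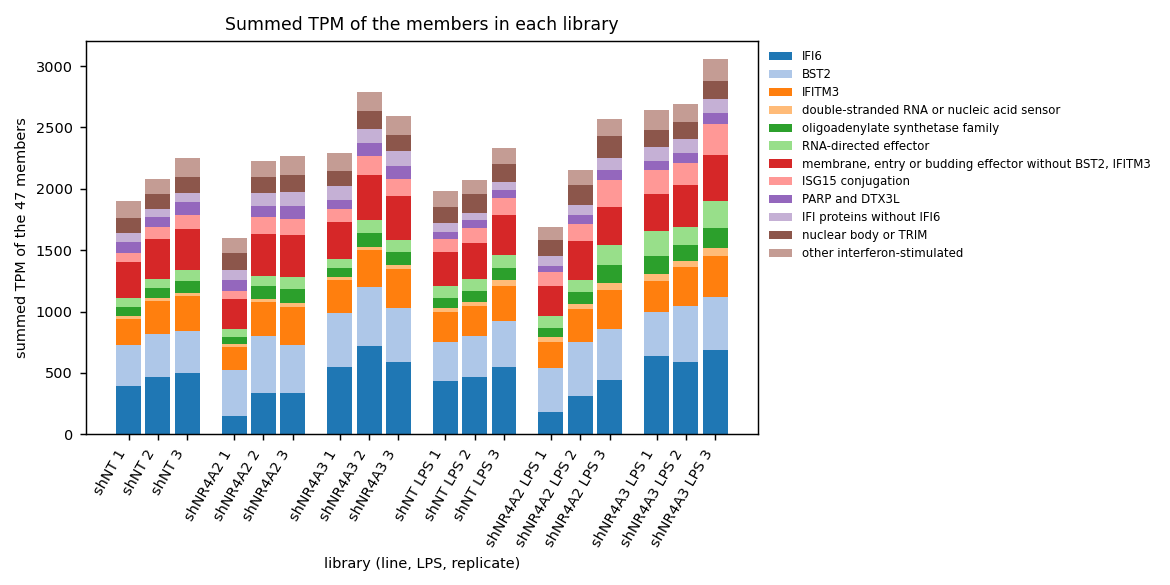
Summed TPM of the 47 members (vertical axis) in each of the 18 libraries (horizontal axis), stacked by IFI6, BST2, IFITM3 and the members' roles. The 6 shNR4A3 bars reach 2293 to 3054 and each stands above the shNT and shNR4A2 bars of the same state, and the IFI6 block is shortest in shNR4A2 replicate 1.

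The direct comparison of the knockdown lines asks which members separate shNR4A3 from shNR4A2 cells. Without LPS, IFI27, IFI6 and PLSCR1 were higher in shNR4A3 cells, and with LPS IFI27, PLSCR1, XAF1 and SP100 were. These are 3 of 45 members (6.67%) against a background of 3.08% of all 15584 genes called (1.14% higher and 1.94% lower), and 4 of 46 (8.70%) against 2.33% of 15539 (1.06% higher and 1.27% lower). None was called lower. By sign alone, 36 of 45 members were above 0 without LPS and 39 of 46 with LPS. The median log2 fold change of the members was 0.19 and 0.30, against -0.00091 and -0.0097 over all genes tested. The TPM of the 2 groups did not overlap in 4 members without LPS, all higher in shNR4A3, and in 9 with LPS, of which 8 were higher. Over all genes the groups did not overlap in 19% and 21.1%, and were apart with shNR4A3 higher in 6.34% and 10%.

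IFI27, a short membrane protein of mitochondria and the nuclear envelope, stood furthest apart. Its TPM was 6.06, 5.17 and 5.92 in shNT, 4.6, 7.86 and 9.08 in shNR4A2 and 26.1, 28.2 and 23.2 in shNR4A3 control libraries. With LPS it was 7.9, 6.86 and 7.87 in shNT, 7.16, 7.55 and 10.5 in shNR4A2 and 31.6, 31.3 and 31.3 in shNR4A3. In both states every shNR4A3 library lay far above the 6 others, while shNT and shNR4A2 libraries overlapped. Its log2 fold change between the knockdown lines was 1.90 (SE 0.20, adjusted p = 0.000225) without LPS and 1.90 (SE 0.16, adjusted p = 0.000937) with LPS. It was called in both states whichever 1 of the 6 libraries was left out. Between shNR4A2 and shNT cells it changed by a log2 value of 0.33 (SE 0.22, adjusted p = 0.449) and 0.21 (SE 0.19, adjusted p = 0.546) and was not called.

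IFI6 stood apart from IFI27 in where its level moved. It was at 398, 464 and 501 TPM in shNT, 152, 337 and 339.9 in shNR4A2 and 548, 717 and 589.9 in shNR4A3 control libraries. With LPS it was at 437, 465 and 552 in shNT, 179, 313 and 443 in shNR4A2 and 638, 586 and 688 in shNR4A3. The shNR4A2 libraries were lowest and the shNR4A3 libraries highest without LPS, with shNT between and no overlap of the 3 groups. With LPS, shNR4A2 replicate 3 overlapped shNT. The knockdown lines differed by a log2 value of 1.21 (SE 0.23, adjusted p = 0.0122) without LPS, also with each library left out in turn. With LPS the difference was 1.04 (SE 0.27, adjusted p = 0.0896) and not called, and with replicate number added as a block the difference was 1.10 with an adjusted p of 0.000342. Against shNT, IFI6 differed by a log2 value of -0.72 (SE 0.24, adjusted p = 0.102) in shNR4A2 control cells, where the block gave -0.79 with an adjusted p of 0.00108, and by a log2 value of -0.59 (SE 0.26, adjusted p = 0.213) with LPS, where it gave -0.65 and 3.51e-08.

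PLSCR1, a phospholipid scramblase of the plasma membrane that also limits viral entry, was the member called lower in shNR4A2 than in shNT cells in both states. It stood at 39.5, 36.7 and 45.4 TPM in shNT, 26.1, 22.4 and 32.3 in shNR4A2 and 40, 38.9 and 45.7 in shNR4A3 control libraries, and with LPS at 47, 41.3 and 48.3 in shNT, 29.2, 27.3 and 31.6 in shNR4A2 and 56, 46.3 and 56.8 in shNR4A3. The shNR4A2 libraries were lowest in both states without overlap, and shNT and shNR4A3 libraries overlapped. PLSCR1 changed by a log2 value of -0.59 (SE 0.13, adjusted p = 0.0204) in shNR4A2 against shNT without LPS and by a log2 value of -0.58 (SE 0.12, adjusted p = 0.0242) with LPS. Between the knockdown lines it differed by a log2 value of 0.68 (SE 0.14, adjusted p = 0.0191) and 0.86 (SE 0.14, adjusted p = 0.019). Each of these 4 calls was made in 3 of the 6 fits that left out 1 library, and it was lost without shNR4A2 replicate 1 in all 4.

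XAF1, which promotes apoptosis, and SP100, a nuclear body protein that restrains viral DNA, completed the calls with LPS. XAF1 stood at 6.02, 8.65 and 7.8 TPM in shNR4A2 and 10.7, 12.9 and 13.2 in shNR4A3 libraries (log2 fold change 0.71, SE 0.14, adjusted p = 0.036). SP100 stood at 15.9, 18.9 and 15.8 in shNR4A2 and 22, 23.5 and 21.3 in shNR4A3 (log2 fold change 0.40, SE 0.08, adjusted p = 0.0474). Neither pair of groups overlapped, and both calls were lost whichever library was left out.

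The count of members that separate the knockdown lines depended on the fit. Libraries with the same replicate number deviated together, and with that number as a block 11 of 45 members were called without LPS, all higher in shNR4A3, where 11.6% of all genes were called. With LPS the block gave 26 of 46, 25 higher and 1 (TRIM25) lower, where 23.6% of all genes were called. These included all 3 and all 4 members named above. The 22 members added with LPS included IFIT1, IFIT2, IFIT3 and IFIT5, OAS1, OAS2, OAS3 and OASL, IFI44, IFI44L, ISG15, MX1 and MX2. Without any filter on low counts 20 of 47 were called with LPS, where 2.8% of all genes were. Leaving out shNR4A2 replicate 1, the library with the lowest sum, gave 2 members without LPS and 1 with LPS (IFI27). Leaving out replicate 3 of shNR4A2 gave 5 and 6. With LPS, leaving out replicate 1 or replicate 3 of shNR4A3 gave 1, and leaving out replicate 2 of either line gave 2.

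**Figure D2:**
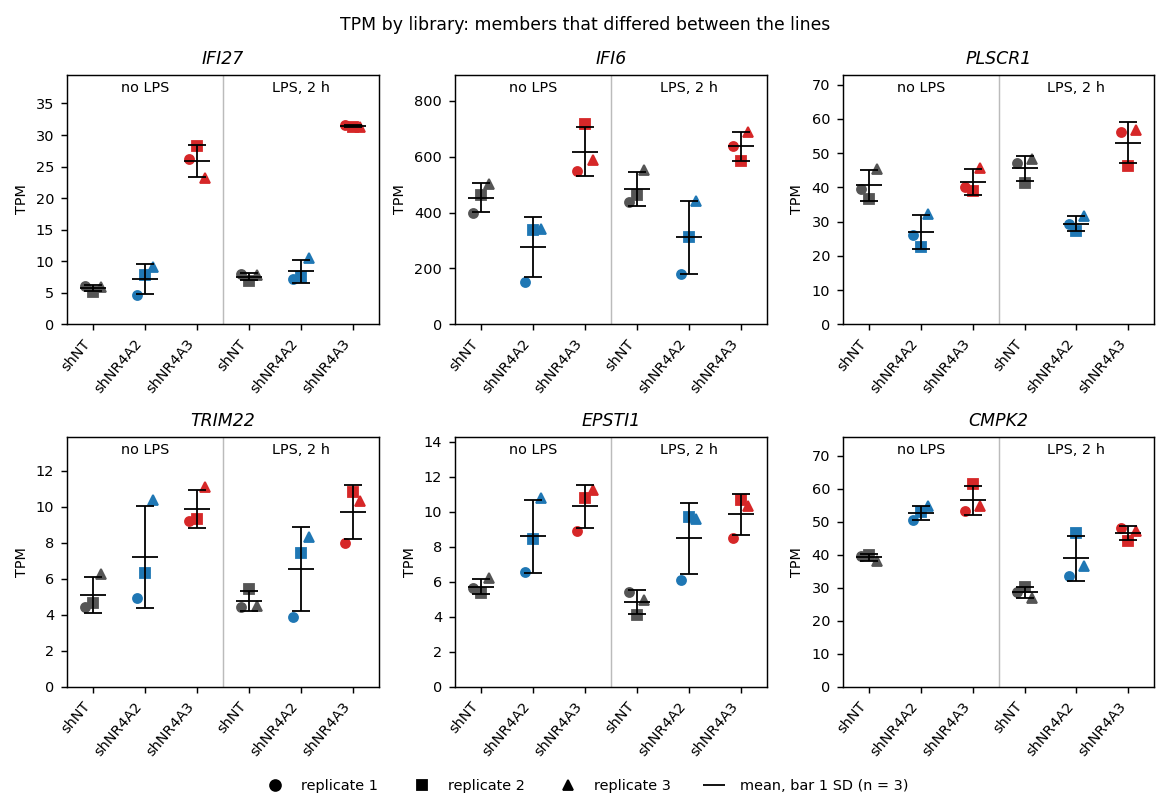
TPM (vertical axes) of IFI27, IFI6, PLSCR1, TRIM22, EPSTI1 and CMPK2 in each library, by line and LPS (horizontal axes). Symbols are replicate numbers, and black marks are the mean with 1 SD (n = 3). IFI27 is high in shNR4A3 alone, IFI6 and PLSCR1 are lowest in shNR4A2, and CMPK2 is above shNT in both knockdown lines.

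Against shNT, shNR4A3 cells carried the broader difference. Without LPS 13 of 45 members were called (28.9%, against 7.23% of 15322 genes), and with LPS 22 of 46 (47.8%, against 6.45% of 15578), all of them higher in shNR4A3. Over all genes 3.91% were called higher and 3.32% lower without LPS, and 3.99% and 2.46% with LPS. The members' median log2 fold change was 0.27 without LPS and 0.59 with LPS, where the median of all genes was -0.0031 and -0.0085. With LPS, 45 of the 46 members were above 0, and 9 of the called ones were at least 2-fold higher. The comparisons of the 3 lines share libraries, so their counts are given side by side only. Both states shared 11 called members. BST2 and IFI6 were called only without LPS, and 11 only with LPS. A difference between these 2 states is a difference in the LPS response, which is tested below. With the replicate block 19 and 35 members were called, where 14.8% and 21.8% of all genes were.

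By role, all 5 IFI proteins were called higher without LPS (IFI27, IFI6, IFI35, IFI44 and IFI44L), with a median log2 fold change of 0.78, and 4 of 5 with LPS, with a median of 1.09. The count without LPS was 3 of 5 without shNT control replicate 1 (IFI6 and IFI44 lost) and without shNT control replicate 2 or shNR4A3 control replicate 3 (IFI35 and IFI44 lost), and 2 of 5, IFI27 and IFI35, with all 18 libraries in 1 fit. IFI44, a cytoplasmic protein of uncertain mechanism, stood at 8.02, 7.56 and 10.7 TPM in shNT and 11.9, 14.9 and 16.8 in shNR4A3 control libraries (log2 fold change 0.78, SE 0.18, adjusted p = 0.0204). With LPS it was at 8.04, 6.45 and 9.08 in shNT and 16.4, 19.3 and 17.8 in shNR4A3 (log2 fold change 1.23, SE 0.17, adjusted p = 0.00306). Its neighbour and relative IFI44L stood at 2.08, 1.95 and 1.95 in shNT and 3.08, 3.89 and 3.29 in shNR4A3 (log2 fold change 0.82, SE 0.15, adjusted p = 0.00494), and with LPS at 1.77, 1.94 and 1.96 in shNT and 3.59, 3.83 and 4.19 in shNR4A3 (log2 fold change 1.09, SE 0.14, adjusted p = 0.00188). No shNR4A3 library of either gene fell within the range of shNT libraries. For IFI27 the log2 fold change was 2.22 (SE 0.13, adjusted p = 3.5e-07) without LPS and 2.11 (SE 0.11, adjusted p = 1.42e-05) with LPS, the largest of any member in both comparisons. IFI6 differed by a log2 value of 0.49 (SE 0.10, adjusted p = 0.0118) without LPS and by a log2 value of 0.45 (SE 0.12, adjusted p = 0.0551) with LPS, where the replicate block gave 0.46 with an adjusted p of 0.000368.

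The oligoadenylate synthetases, which make the messenger that activates RNase L, were each called higher in shNR4A3 than in shNT cells with LPS, 4 of 4. OAS1 was called without LPS (log2 fold change 0.58, SE 0.10, adjusted p = 0.00392), and OAS1, OAS2, OAS3 and the inactive relative OASL with LPS, with log2 fold changes of 0.92, 0.84, 0.60 and 1.09. With LPS, OASL stood at 17, 12.6 and 14.5 TPM in shNT and 36.5, 20.8 and 32.1 in shNR4A3 libraries, without overlap (log2 fold change 1.09, SE 0.22, adjusted p = 0.0183). Without LPS its groups overlapped, at 5.24, 6.51 and 6.06 in shNT and 4.42, 8.1 and 8.27 in shNR4A3. OAS3, the most abundant of the family, stood at 29, 31.5 and 31.9 in shNT and 39.4, 44.9 and 49.8 in shNR4A3 libraries with LPS (log2 fold change 0.60, SE 0.10, adjusted p = 0.00683). The OASL call with LPS was lost in 4 of the 6 fits that left out a library, and the calls of OAS3 with LPS and OAS1 without LPS were lost with all 18 libraries in 1 fit.

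Of the 6 RNA-directed effectors, IFIT3 alone was called without LPS, and IFIT1, IFIT2 and IFIT3, which bind viral RNA ends or each other, with LPS. The call of IFIT3 without LPS was made in 1 of the 6 fits that left out 1 library and was lost with all 18 libraries in 1 fit. IFIT2 stood at 8.61, 9.09 and 11.1 TPM in shNT and 7.92, 11.9 and 13.5 in shNR4A3 without LPS, groups that overlapped. With LPS it stood at 18.4, 18.2 and 19.8 in shNT and 45.5, 31.5 and 52.5 in shNR4A3, groups well apart (log2 fold change 1.27, SE 0.18, adjusted p = 0.00408). IFIT3 stood at 20.2, 20.5 and 21.5 in shNT and 24.3, 35.6 and 27.5 in shNR4A3 without LPS (log2 fold change 0.53, SE 0.13, adjusted p = 0.0264) and at 33.9, 32 and 35.2 in shNT and 86.6, 61.2 and 80.9 in shNR4A3 with LPS (log2 fold change 1.24, SE 0.15, adjusted p = 0.00174). IFIT5 differed by a log2 value of 1.08 (SE 0.33, adjusted p = 0.0836) and was not called, and EIF2AK2, the kinase PKR that stops translation, by a log2 value of 0.18 (SE 0.09, adjusted p = 0.276).

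Among the nuclear and TRIM proteins, TRIM22, a ubiquitin ligase that acts against several viruses, stood at 4.41, 4.63 and 6.26 TPM in shNT and 9.2, 9.32 and 11.1 in shNR4A3 control libraries (log2 fold change 1.01, SE 0.15, adjusted p = 0.00131). With LPS it stood at 4.4, 5.42 and 4.46 in shNT and 8.01, 10.8 and 10.3 in shNR4A3 (log2 fold change 1.09, SE 0.13, adjusted p = 0.00189). SP100 stood at 21.4, 18.2 and 20.6 in shNT and 32, 28.7 and 30.7 in shNR4A3 control libraries, and with LPS at 15.2, 15.5 and 12.8 in shNT and 22, 23.5 and 21.3 in shNR4A3. It was higher by a log2 value of 0.65 (SE 0.10, adjusted p = 0.00105) and 0.68 (SE 0.09, adjusted p = 0.00218). The groups of both genes were apart in both states. TRIM25, the most abundant of this group, stood at 89.7, 89.4 and 95.7 in shNT and 77.7, 96 and 82.9 in shNR4A3 control libraries, which overlapped. SP110 and TRIM25 were not called, and TRIM25 was the only member below 0 with LPS (log2 fold change -0.11, SE 0.08, adjusted p = 0.431).

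In the membrane, entry and budding group 3 of 8 were called in each state. BST2 stood at 329, 357 and 342 TPM in shNT and 439, 484 and 442 in shNR4A3 control libraries (log2 fold change 0.45, SE 0.09, adjusted p = 0.00563). CMPK2, a mitochondrial nucleotide kinase next to RSAD2, stood at 39.5, 40 and 38.1 in shNT and 53.3, 61.5 and 54.8 in shNR4A3 without LPS (log2 fold change 0.57, SE 0.09, adjusted p = 0.00187) and at 28.8, 30.2 and 26.8 in shNT and 48.2, 44.3 and 47.3 in shNR4A3 with LPS (log2 fold change 0.77, SE 0.09, adjusted p = 0.00155). MX2 was called in both states, and MX1, a dynamin-like GTPase that traps viral nucleocapsids, with LPS. The MX2 call without LPS (adjusted p = 0.0496) was made in 1 of the 6 fits that left out a library and was lost with DESeq2's size factors, and the MX1 call was made in 3. IFITM1, IFITM2, IFITM3 and RSAD2 were called in neither. For the abundant IFITM3, 213, 263 and 282 TPM in shNT and 270.0, 297 and 317 in shNR4A3 control libraries overlapped (log2 fold change 0.27, SE 0.11, adjusted p = 0.159).

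In the ISG15 conjugation group, ISG15 was called with LPS (log2 fold change 0.90, SE 0.16, adjusted p = 0.0111), and HERC5, HERC6 and USP18 of the same group were not. PARP14 was called with LPS, and PARP9, PARP12 and DTX3L were not. The RNA sensors DDX58 (RIG-I), IFIH1 (MDA5) and DHX58 were called in neither state without the replicate block. With LPS, IFIH1 differed by a log2 value of 0.61 (SE 0.17, adjusted p = 0.0666) and DHX58 by 0.60 (SE 0.16, adjusted p = 0.058). The block called more members with LPS, so some members given above and here as not called were called with it. EPSTI1, a gene first known from epithelial and stromal contact, stood at 5.64, 5.33 and 6.18 TPM in shNT and 8.91, 10.8 and 11.2 in shNR4A3 control libraries (log2 fold change 0.90, SE 0.14, adjusted p = 0.00146). With LPS it stood at 5.41, 4.1 and 4.97 in shNT and 8.52, 10.7 and 10.3 in shNR4A3 (log2 fold change 1.08, SE 0.15, adjusted p = 0.00336), again without overlap. XAF1, SAMD9 and SAMD9L were called with LPS only, and LGALS3BP, PLSCR1, RTP4 and LAMP3 in neither state.

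Leaving out 1 library at a time, 8 of the 13 calls without LPS and 14 of the 22 with LPS were made in all 6 fits. The 8 were OAS1, BST2, CMPK2, IFI27, IFI44L, SP100, TRIM22 and EPSTI1. The 14 were OAS1, OAS2, OAS3, IFIT2, IFIT3, CMPK2, MX2, IFI27, IFI44, IFI44L, SP100, TRIM22, XAF1 and EPSTI1. Of the others without LPS, IFI6 was called in 5, IFI35 and IFI44 in 3 and IFIT3 and MX2 in 1. Of those with LPS, ISG15 was called in 5, MX1 and IFI35 in 3, OASL, IFIT1, PARP14 and SAMD9L in 2 and SAMD9 in 1. Without shNT LPS replicate 2 the count with LPS was 14. Fitted on all 18 libraries together, the count without LPS was 7, with OAS1, IFIT3, MX2, IFI6, IFI44 and IFI44L lost, and with LPS OAS3, IFIT1, MX1, ISG15, PARP14 and SAMD9L were lost.

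**Figure D3:**
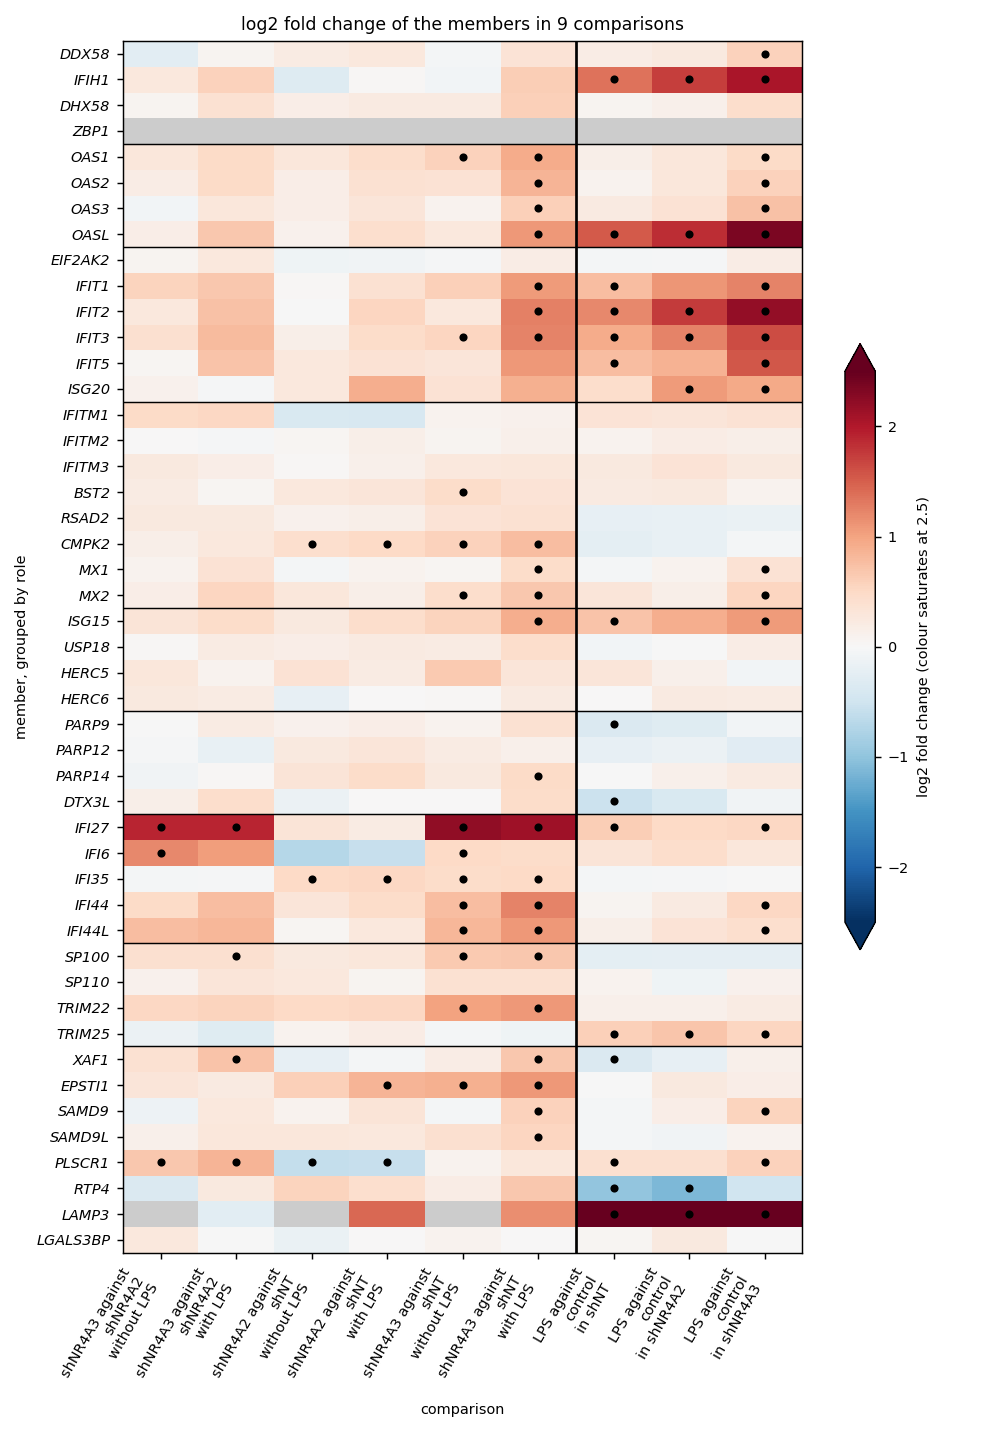
Log2 fold change (colour) of the 47 members (rows, grouped by role) in the 6 comparisons of lines and the 3 of LPS against control (columns), with a dot where the adjusted p was under 0.05 and grey where the member was not tested. In shNR4A3 against shNT the dots are all on the red side, 13 without and 22 with LPS, and LAMP3, OASL, IFIT2 and IFIH1 are darkest in the LPS columns.

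In shNR4A2 cells fewer members differed from shNT. Without LPS 3 of 45 were called (6.67%, against 6.45% of 15800 genes), with CMPK2 and IFI35 higher and PLSCR1 lower. With LPS 4 of 46 were (8.70%, against 6.96% of 15590), CMPK2, IFI35 and EPSTI1 higher and PLSCR1 lower. Of all genes 3.63% were called higher and 2.82% lower without LPS, and 4.31% and 2.65% with LPS. Without the replicate block both shares of members are close to the background. With it 12 of 45 members against 23.6% of all genes were called without LPS, and 22 of 46 against 28.1%, a share above the background, with LPS. The median log2 fold change was 0.17 and 0.26, and 34 of 45 and 41 of 46 members were above 0. CMPK2 stood at 50.5, 53 and 54.8 TPM without LPS (log2 fold change 0.43, SE 0.10, adjusted p = 0.0257) and 33.6, 46.5 and 36.6 with LPS (log2 fold change 0.49, SE 0.10, adjusted p = 0.0239), in both states above the shNT levels given above. IFI35, a leucine zipper protein of interferon-treated cells, stood at 58.9, 53.9 and 54.6 in shNT, 70.1, 83.1 and 81.9 in shNR4A2 and 69.5, 73.2 and 78.7 in shNR4A3 control libraries (log2 fold change 0.49, SE 0.11, adjusted p = 0.026 in shNR4A2 and 0.45, SE 0.10, adjusted p = 0.0154 in shNR4A3). With LPS it stood at 48, 44.4 and 46.1 in shNT, 63, 62.3 and 65.2 in shNR4A2 and 62.6, 60.2 and 65 in shNR4A3, and the knockdown lines overlapped in both states. EPSTI1 stood at 6.11, 9.71 and 9.58 with LPS in shNR4A2 (log2 fold change 0.86, SE 0.20, adjusted p = 0.0315).

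IFI44, IFI44L and TRIM22, chosen after their values were seen, spread widely in shNR4A2. IFI44 stood at 7.02, 10 and 15.3 TPM in shNR4A2 control libraries and 5.26, 9.18 and 16.6 with LPS, and IFI44L at 1.28, 1.81 and 3.13 and 1.16, 1.97 and 3.36. TRIM22 stood at 4.91, 6.33 and 10.4 without LPS and 3.89, 7.45 and 8.32 with LPS. In all 3 genes replicate 1 was the lowest and replicate 3 the highest in both states, so that the shNR4A2 range reached from the shNT to the shNR4A3 libraries, except for IFI44L with LPS, which stayed below shNR4A3. EPSTI1 stood at 6.56, 8.44 and 10.8 in shNR4A2 control libraries, all above shNT.

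These counts in shNR4A2 rested on few libraries. Leaving out shNT replicate 1 or 3 gave 0 calls in either state, and leaving out shNT replicate 2 gave 1. Without shNR4A2 control replicate 3 the count without LPS was also 1. Of the members called with the replicate block, 8 were higher and 4 lower without LPS, and 19 were higher and 3 lower with LPS. Without the filter on low counts there were 5 and 13 of 47, where 4.21% and 4.57% of all genes were called. In the pairs of equal replicate number, 18 of 45 members were higher in shNR4A2 than in shNT in replicate 1, 32 in replicate 2 and 33 in replicate 3 without LPS. With LPS the numbers were 17, 36 and 40 of 46. For shNR4A3 against shNT they were 29, 43 and 32 of 45 without LPS and 42, 42 and 43 of 46 with LPS. These counts are signs of TPM ratios, from which the shift of all genes was not taken off. In shNR4A2 replicate 1 with LPS the median log2 ratio was -0.083 for the members and -0.12 for all genes. Without LPS these 2 medians were -0.096 and -0.0023. For shNR4A3 without LPS the all-gene medians were -0.088, 0.065 and -0.12, and those of the members 0.17, 0.44 and 0.17.

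**Figure D4:**
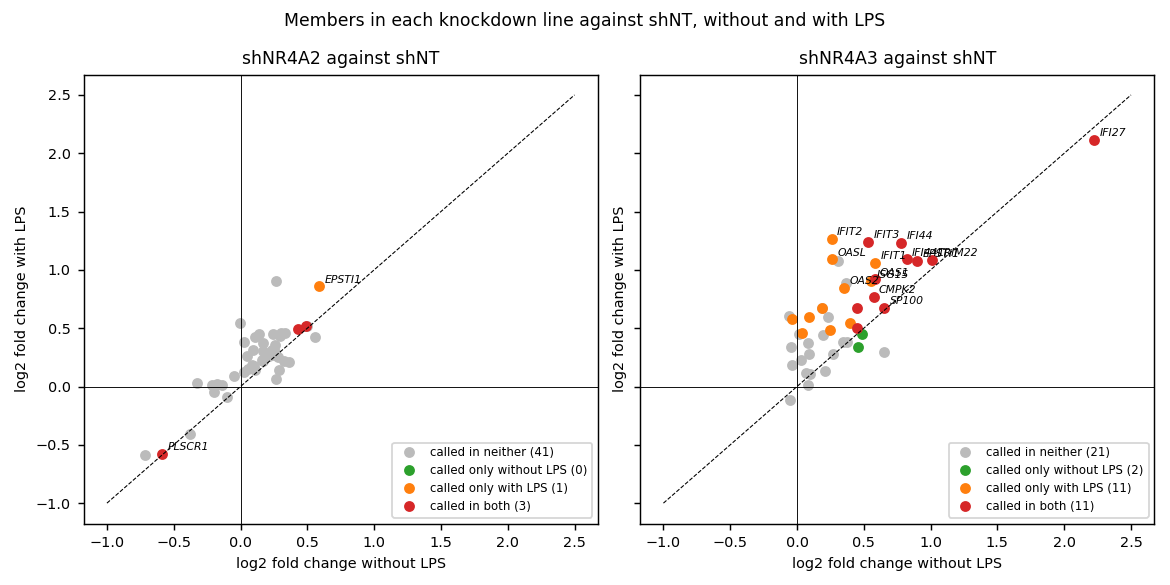
Log2 fold change of the members against shNT without LPS (horizontal axes) and with LPS (vertical axes), in shNR4A2 (left) and shNR4A3 (right), with colours for the state in which a member was called and a dashed line of equal values. In shNR4A3, 11 members were called in both states, 2 only without LPS and 11 only with LPS, and IFI27 stands apart at 2.22 and 2.11.

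Other measures moved along with these differences between lines. Of the 8 monocyte markers, 5 were called higher in shNR4A3 than in shNT without LPS (CD14, CSF1R, SPI1, LYZ and ITGAM) and 4 with LPS, and 3 (CD14, CSF1R and LYZ) and 2 (CSF1R and LYZ) in shNR4A2. Their summed TPM was 1221, 1106 and 1105 in shNT, 1884, 1616 and 1785 in shNR4A2 and 2329, 1873 and 2023 in shNR4A3 control libraries. With LPS it was 1380.3, 1196 and 1182 in shNT, 1999, 1731 and 1762 in shNR4A2 and 2408, 1980.2 and 2204 in shNR4A3. The most abundant was SPI1, the myeloid factor PU.1. LYZ, which encodes lysozyme, stood at 198, 177 and 202 TPM in shNT, 675, 462 and 709 in shNR4A2 and 1040.0, 708 and 901 in shNR4A3 control libraries. Between the knockdown lines 0 of 8 markers were called in either state without the replicate block. Yet in every pair of equal replicate number the summed TPM was higher in shNR4A3 than in shNR4A2, in both states. LYZ is part of that sum, and without LPS it was itself higher in shNR4A3 in each pair. By the values above, LYZ made up most of the gap between the knockdown lines' sums without LPS. That gap therefore does not show a shift of the markers as a set. The part of these shifts in the members' differences was not tested. In bulk RNA, more cells of a kind and more RNA per cell cannot be told apart.

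The pathway above the members was followed through 6 lists. Of 21 interferon ligand genes 11 had a count, and IFNB1 alone was high enough to be tested. It was at 0 in all 3 control libraries of shNT and of shNR4A3, with 1 read in shNR4A2. With LPS it stood at 2.03, 3.99 and 2.81 TPM in shNT, 4.23, 2.8 and 3.98 in shNR4A2 and 3.44, 4.41 and 2.34 in shNR4A3. The 3 lines overlapped, and no pair of them passed the test. The log2 fold change was -0.14 (SE 0.35, adjusted p = 0.892) for shNR4A3 against shNR4A2, 0.25 (SE 0.38, adjusted p = 0.736) for shNR4A3 against shNT and 0.38 (SE 0.37, adjusted p = 0.587) for shNR4A2 against shNT. Against a floor of 3 reads over the control group, IFNB1 was at least 13.6-fold higher with LPS in shNT and at least 13.9-fold higher in shNR4A3. In shNR4A2 it was called higher with LPS, from 1 read summed over the control libraries to 51 (adjusted p = 0.000135).

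Of 9 genes for interferon receptors and their kinases (8 tested), IFNAR2 and IFNGR1 were higher in both knockdown lines than in shNT without LPS. With LPS 4 were higher in shNR4A2 (IFNGR1, IFNAR2, IL10RB and IFNGR2) and 3 in shNR4A3 (IFNAR2, IL10RB and IFNGR2). Of the IRF genes, IRF7 and IRF8 were higher in shNR4A3 than in shNT without LPS, and IRF1, IRF7, IRF8 and IRF9 with LPS. In shNR4A2, 0 were called without LPS and IRF1 and IRF8 with LPS. IRF7, which amplifies interferon responses, stood at 34.8, 45.6 and 43.4 TPM in shNT and 49.1, 66.1 and 57.6 in shNR4A3 control libraries (log2 fold change 0.53, SE 0.13, adjusted p = 0.0233), and with LPS at 57.2, 53.4 and 64.6 in shNT and 96.5, 81 and 98.4 in shNR4A3 (log2 fold change 0.72, SE 0.13, adjusted p = 0.0112). IRF9 stood at 6.66, 5.27 and 5 in shNT and 8.38, 8.39 and 8.03 in shNR4A3 with LPS (log2 fold change 0.61, SE 0.15, adjusted p = 0.0454). Between the knockdown lines 0 genes of the receptor, IRF, negative regulator and TLR4 lists were called in either state without the replicate block. The 6 negative regulators (SOCS1, SOCS3, PIAS1, PTPN1, PTPN2 and PTPN6) were called in no comparison of lines in these unblocked fits. In the TLR4 list CD14 and LY96 were higher in shNR4A2 than in shNT without LPS, and CD14 was higher and TRAF3 lower in shNR4A3. LY96 had only 152 reads over all 18 libraries, and its adjusted p of 0.04996 lay at the threshold. Of 7 further adaptors and nucleic acid sensors 5 were tested, and 3 of them were called in shNR4A2 against shNT in both states. TMEM173, which encodes STING, was lower there (log2 fold change -0.69, SE 0.13, adjusted p = 0.00832 without LPS), and TLR7 and TLR8, sensors of single-stranded RNA, were higher (log2 fold change 1.59, SE 0.42, adjusted p = 0.0422 and 1.71, SE 0.36, adjusted p = 0.0156). In shNR4A3, TLR7 was higher without LPS and TLR8 with LPS. With LPS against control, IRF1, IRF4 and IRF7 were called higher and IRF5 lower in all 3 lines. IKBKE, TRAF3 and TICAM1 of the TLR4 list rose in all 3 as well, as did SOCS3, PTPN1 and PTPN2. The negative regulators did not rise as a set, since the others had log2 fold changes below 0 in shNT. Among those called lower there was PIAS1 (log2 fold change -0.48, SE 0.09, adjusted p = 0.00164).

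LPS for 2 h raised a part of the members in every line. In shNT cells 15 of 46 were called (32.6%, against 24.9% of 15711 genes), 11 higher (11.6% of all genes) and 4 lower (13.3%). In shNR4A2 cells 8 were called (17.4%, against 19.3% of 15772), 7 higher (9.23% of all genes) and 1 lower (10.1%). In shNR4A3 cells 21 were called (45.7%, against 28.1% of 15342), all higher (13.1% of all genes, with 15% lower). With the replicate block 18 were called in shNR4A2 (15 higher and 3 lower, where 30.1% of all genes were). The median TPM ratio of all genes fell with LPS, by log2 values of -0.23, -0.12 and -0.34 in the 3 replicates of shNT, and the fold changes are relative to that shift, so a gene listed with a lower TPM can have a fold change near 0. The inflammatory genes TNF, IL1B, CXCL8, CCL20, TNFAIP3 and NFKBIA rose in all 3 lines.

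OASL, IFIH1, IFIT2, IFIT3, TRIM25 and LAMP3 were called higher in each of the 3 lines. IFIT2 rose from 8.61, 9.09 and 11.1 to 18.4, 18.2 and 19.8 TPM in shNT (log2 fold change 1.19, SE 0.12, adjusted p = 6.21e-06), from 6.27, 10 and 12.3 to 19.4, 19.4 and 39.6 in shNR4A2 (log2 fold change 1.74, SE 0.30, adjusted p = 0.00129) and from 7.92, 11.9 and 13.5 to 45.5, 31.5 and 52.5 in shNR4A3 (log2 fold change 2.20, SE 0.22, adjusted p = 3.17e-05). The groups did not overlap in any line. The highest shNR4A2 library with LPS, replicate 3, lay within the range of shNR4A3. In shNR4A2, IFIT3 rose from 14.6, 27.7 and 26.1 to 37.1, 34 and 61.4 TPM and OASL from 3.85, 8.35 and 7.02 to 18, 15.7 and 22.9, again with replicate 3 the highest with LPS. IFIT3 rose by a log2 value of 0.92 (SE 0.11, adjusted p = 2.37e-05) in shNT, 1.24 (SE 0.27, adjusted p = 0.00569) in shNR4A2 and 1.63 (SE 0.17, adjusted p = 3.64e-05) in shNR4A3. OASL rose by a log2 value of 1.53 (SE 0.16, adjusted p = 8e-06), 1.84 (SE 0.26, adjusted p = 0.000276) and 2.36 (SE 0.26, adjusted p = 5.98e-05) in the same order.

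IFIH1, the sensor of long double-stranded RNA, rose from 11.8, 10.4 and 13.1 to 23.7, 23.4 and 30.8 TPM in shNT (log2 fold change 1.37, SE 0.14, adjusted p = 5.16e-06). In shNR4A2 it rose from 8.94, 8 and 11.1 to 22.7, 20.6 and 33.1 (log2 fold change 1.72, SE 0.21, adjusted p = 6.86e-05), and in shNR4A3 from 10.4, 10 and 12.2 to 39.7, 30.5 and 43.3 (log2 fold change 2.03, SE 0.16, adjusted p = 4.74e-06). LAMP3 had the largest fold changes of the members from very low levels, from 19 reads summed over the control libraries to 139 with LPS in shNT (log2 fold change 2.91, SE 0.35, adjusted p = 3.07e-05), from 27 to 337 in shNR4A2 (log2 fold change 4.02, SE 0.45, adjusted p = 3.73e-05) and from 24 to 278 in shNR4A3 (log2 fold change 3.57, SE 0.49, adjusted p = 0.000258). Its TPM with LPS was 2.15, 1.61 and 2.44 in shNT, 4.29, 3.01 and 8.69 in shNR4A2 and 3.39, 2.86 and 6.98 in shNR4A3, against at most 0.73 in any control library. LAMP3 was too low to be tested between control groups, so the size of its fold changes rests on few control reads. TRIM25 rose by a log2 value of 0.59 (SE 0.08, adjusted p = 7.73e-05) in shNT, 0.69 (SE 0.13, adjusted p = 0.00187) in shNR4A2 and 0.53 (SE 0.09, adjusted p = 0.000942) in shNR4A3. All calls of these 6 genes were also made with each library left out.

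**Figure D5:**
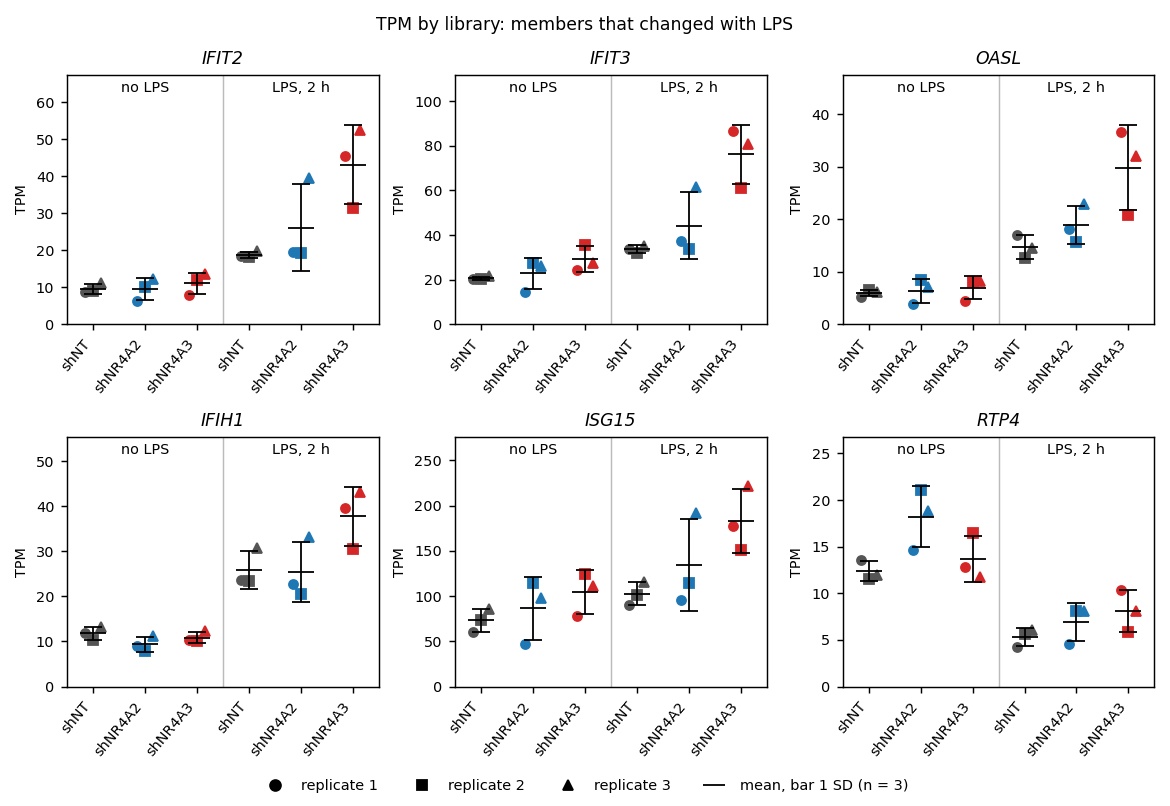
TPM (vertical axes) of IFIT2, IFIT3, OASL, IFIH1, ISG15 and RTP4 in each library, by line and LPS (horizontal axes). Symbols are replicate numbers, and black marks are the mean with 1 SD (n = 3). The first 4 are higher with LPS in every line and have their highest mean in shNR4A3, and RTP4 is lower with LPS.

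Other members passed the test in some lines only, which by itself does not show that the lines differ. IFIT1, IFIT5, ISG15, IFI27 and PLSCR1 were called higher in shNT and shNR4A3, and ISG20, a ribonuclease, in shNR4A2 and shNR4A3. IFIT1 rose from 6.55, 8.53 and 9.36 to 9.52, 11.7 and 14.2 TPM in shNT (log2 fold change 0.76, SE 0.17, adjusted p = 0.00444). IFIT5 rose from 4.37, 6.03 and 6.65 to 16.3, 8.15 and 17.2 in shNR4A3 (log2 fold change 1.54, SE 0.28, adjusted p = 0.00174), and ISG20 from 0.773, 0.803 and 1.03 to 1.32, 1.53 and 1.69 in shNR4A2 (log2 fold change 1.07, SE 0.25, adjusted p = 0.00802). In each of these the 2 groups were apart. In shNT the calls of IFIT1, IFIT5 and ISG15 were lost with all 18 libraries in 1 fit, and with 1 library left out IFIT5 was called in 3 of 6 fits and PLSCR1 in 4. ISG20 in shNR4A3 was called in 3 of 6. In shNR4A3 alone, DDX58, OAS1, OAS2, OAS3, MX1, MX2, IFI44, IFI44L and SAMD9 were called, with log2 fold changes from 0.37 (MX1) to 0.73 (OAS3). OAS3 and MX2 were called in 6 of the 6 fits that left out 1 library, OAS2 in 5, OAS1, MX1 and IFI44 in 3 and DDX58, IFI44L and SAMD9 in 2. With all 18 libraries in 1 fit OAS1, OAS2, MX1, IFI44 and IFI44L were not called, and with DESeq2 IFI44L was not. ISG15 rose from 60.2, 73.8 and 85.6 to 90.3, 101 and 116 TPM in shNT (log2 fold change 0.71, SE 0.14, adjusted p = 0.00162) and from 77.4, 124 and 111 to 177, 151 and 221 in shNR4A3 (log2 fold change 1.06, SE 0.18, adjusted p = 0.00105). In shNR4A2 its groups overlapped, at 47, 114 and 98.1 without LPS and 95.5, 115 and 192 with LPS (log2 fold change 0.91, SE 0.31, adjusted p = 0.0552).

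Fewer members were called lower. By mean TPM, on which the shift of all genes is not taken off, 28 of 47 members were lower with LPS in shNT, 29 in shNR4A2 and 21 in shNR4A3. RTP4, a receptor transport protein that binds viral RNA, fell from 13.6, 11.5 and 12 to 4.26, 5.68 and 6.11 TPM in shNT (log2 fold change -0.99, SE 0.20, adjusted p = 0.00254) and from 14.7, 21.1 and 18.8 to 4.55, 8.11 and 8.14 in shNR4A2 (log2 fold change -1.12, SE 0.24, adjusted p = 0.00606). In shNR4A3 it stood at 12.8, 16.4 and 11.8 without LPS and 10.3, 5.88 and 8.08 with LPS and was not called (log2 fold change -0.50, SE 0.24, adjusted p = 0.146). In shNT cells DTX3L stood at 37.4, 35.5 and 50.5 without LPS and 22.2, 24.8 and 26.1 with LPS, and PARP9 at 14, 14 and 16.4 and 9.16, 10.6 and 9.72. These partners in a ubiquitin ligase complex fell by 0.53 on the log2 scale (SE 0.12, adjusted p = 0.00435) and 0.37 on the log2 scale (SE 0.10, adjusted p = 0.0145), and the PARP9 call was made in 4 of the 6 fits that left out a library. XAF1, at 11.2, 11 and 13.9 without LPS and 7.64, 9.1 and 7.34 with LPS, fell there by 0.36 on the log2 scale (SE 0.12, adjusted p = 0.0366), a call lost in 5 of the 6 fits that left out a library and with DESeq2.

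Whether the LPS response itself differed between lines was tested by the interaction of line and LPS on 12 libraries. For each pair of lines 0 members and 0 of all genes were called, a background of 0%. At an unadjusted p under 0.05 there were 0 members for shNR4A2 against shNT (365 of 16674 genes), 9 for shNR4A3 against shNT (824 of 16428) and 0 for shNR4A3 against shNR4A2 (396 of 16447), and DESeq2 called 0 members in each. With the replicate block 0 members were called for each pair, and 0 of all genes for shNR4A3 against shNR4A2, the pair whose replicate numbers pair the libraries. The 9 members for shNR4A3 against shNT were IFIT2, IFIT3, SAMD9, XAF1, MX1, IFIH1, OASL, OAS2 and OAS3, each with a difference above 0 (the fold change in shNR4A3 minus that in shNT). For XAF1 it joins a fall in shNT to a value not called in shNR4A3 (log2 fold change 0.12, SE 0.12, adjusted p = 0.472). For IFIT2 the difference of the 2 responses was 1.00 (SE 0.28, adjusted p = 0.764) and for IFIT3 0.70 (SE 0.21, adjusted p = 0.844). Over the 46 members the median of that difference was 0.24, against -0.01 over all genes tested, and 39 were above 0. Without shNR4A3 LPS replicate 2, IFIT2 and IFIT3 were called (2 members), and without the filter on low counts 5 were, these 2 with IFIH1, OASL and SAMD9.

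The members with a promoter can also be counted by the ISRE core. With LPS in shNR4A3 cells 13 of 27 members with a match and 3 of 10 without one were called higher, with median log2 fold changes of 0.36 and 0.11. Of all genes 13.1% were called higher there. For shNR4A3 against shNT with LPS the counts were 11 of 27 and 6 of 10, with medians of 0.49 and 0.52. In that comparison 3.99% of all genes were called higher. CMPK2, IFI35, SP100, OAS1, SAMD9L and XAF1 were the 6 members called there that have no match in the window. The difference between these counts was not tested. Members of the IFIT, OAS, IFITM, MX and IFI44 families resemble each other and some sit side by side, and the strand setting of the counting is not given in the sources used here, so counts split among relatives or overlapping genes are uncertain.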

How the data were processed

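RNA-seq of 18 libraries of THP-1 lines, 3 in each of 6 groups taken from the labels, was read from gene tables that hold the count and the length of each of 57500 genes, as deposited by the authors. Per the submitters' processing notes, reads were trimmed with Trimmomatic 0.36, aligned to GRCh38 with STAR 2.5.2b and counted with featureCounts of Subread 1.5.2. The annotation release and the strand setting are not given in the sources used here, and symbols were added by gene identifier from GENCODE 29. The members and gene lists were chosen with earlier results of these data known.

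The deposited counts were tested with edgeR 4.0.16 in R 4.3.3 (limma 3.58.1), by the quasi-likelihood test after TMM scaling and the default filter on low counts, on the 6 libraries of each comparison and on 12 libraries for the difference in LPS response. The Benjamini-Hochberg adjustment ran over all genes tested, and a gene was called at an adjusted p under 0.05. SE is that of the log2 fold change. With 3 libraries against 3, an exact permutation test of a single gene cannot go below 0.1. TPM was computed from count and length and used for levels only. The alternatives were DESeq2 1.42.0, its size factors, no filter, all 18 libraries in 1 fit, the replicate number as a block, and leaving out each library. The test was also run on simulated counts, and the outcome of that run is not reported here.

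Whether the replicate numbers pair the libraries was taken from the correlation of their deviations from the group means. The lowest correlation was 0.159 to 0.354 in the 6 comparisons of lines, and 0.222 and 0.202 for LPS in shNR4A2 and shNR4A3, all over the limit of 0.1. It was 0.0598 for LPS in shNT, where the numbers were therefore not read as pairs, and 0.126 for the interaction of the knockdown lines. The main fits left the pairing out in every comparison, and the replicate block was run as an alternative only. Calls, members given as not called and fits that left out a library therefore come from unpaired fits, unless the block is named.

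Values in every library of a comparison were given for members called there whose groups do not overlap (at most the 6 largest fold changes in a direction), for IFI27 and for the most abundant member of a role group. Of each pathway list at most 3 called genes were to be given with values, with IFNB1 and the NR4A genes. A gene of the pathway lists is not reported here. Other called members are named, and further levels were added after their values were seen. The promoters come from RefSeq on GRCh38.p14. The searched windows were 250 bases before to 50 after each listed start, and a gene counted once. No promoter entry was used for DHX58, ZBP1, OAS2, OASL, IFIT2, IFITM2, MX2, USP18, TRIM22 and LAMP3.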

Additional observations from a re-analysis of the deposited data

How the results depend on the processing

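No call of a comparison changed direction under any alternative. The members and pathway genes picked by the naming rule gave 168 single-gene results, and of their values under alternatives 1668 kept their direction and side of the threshold, 174 lost the call and 5 gained one. With the replicate number as a block, the members called were 11 for shNR4A3 against shNR4A2 without LPS and 26 with LPS, 12 for shNR4A2 against shNT without LPS and 22 with LPS, 35 for shNR4A3 against shNT with LPS, and 18 for LPS in shNR4A2. The block kept all calls of the unblocked fits in all 9 pairwise comparisons. For LPS in shNT, where the numbers are only shared, it gave 22 in place of 15, where 32% of all genes were called. Without the filter on low counts there were 20 for shNR4A3 against shNR4A2 with LPS, 5 and 13 for shNR4A2 against shNT without and with LPS, 13 for LPS in shNR4A2 and 5 for the difference in LPS response between shNR4A3 and shNT, where between 0.314% and 9.11% of all genes were called. With all 18 libraries in 1 fit, shNR4A3 against shNT without LPS gave 7. The cause of these shifts was not tested.

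Leaving out 1 library gave 2 to 5 calls for shNR4A3 against shNR4A2 without LPS and 1 to 6 with LPS, 0 to 3 and 0 to 5 for shNR4A2 against shNT, 9 to 17 and 14 to 30 for shNR4A3 against shNT, 12 to 16, 8 to 12 and 14 to 22 for LPS in shNT, shNR4A2 and shNR4A3, and 0 to 2 for the difference in LPS response between shNR4A3 and shNT. DESeq2 and its size factors moved no count of calls by over 1.5 times. Low counts limited the tests of ZBP1, which did not pass the filter in any comparison, and LAMP3, which passed it in no comparison of lines without LPS.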
